A study of Sus scrofa with 6 samples.

Results

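Contractile and actin cytoskeleton genes code for the filaments, motors and anchors by which cells pull on their surroundings, together with the regulator SRF and 3 secreted or nuclear targets of mechanical signalling. The list holds 42 entries, with smooth muscle alpha actin (ACTA2) and calponin 1 (CNN1) as its markers. Of these, 2 were given as gene model identifiers, 26 were found by symbol and 10 by the protein name in the deposited annotation. The 38 entries found make up 42 of 19670 gene models, because ACTN1 has 2 models, MYH10 has 3 and TPM3 has 2. FLNA, LMOD1, MYL6 and MYOCD had no match and were not analysed here. The list was selected on an earlier reading of the same libraries, in which 1 light chain model, ACTA2, CNN1 and DES stood lower with GW0742. Differences of its members between GW0742 and DMSO are therefore given as a description. Counts of members that pass a threshold describe the list beside the share of all models and test nothing about it.

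RNA was sequenced from primary cells freed by enzymes from the external ear cartilage of 1 pig, aged 4 months, of the cross Duroc x (Landrace x Large White). The pig carried wild-type PPARD, as did all cells of both groups. One group received GW0742, which activates the lipid-sensing nuclear receptor PPARD, for 24 h, and the other received DMSO, the solvent, for 24 h. Each group has 3 libraries, read on an Ion Proton instrument, and no dose of GW0742 is stated in the labels. Whether the 3 libraries of a group came from separate cultures is not stated, so a p-value here covers the spread among the 6 libraries alone, and this spread may be technical.

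Force in such cells comes from myosin II, whose heavy chains walk on actin filaments once the regulatory light chain has been phosphorylated by kinases such as myosin light chain kinase. Tropomyosin, calponin, caldesmon and transgelin lie along or bind the actin filament and tune this contact, while alpha-actinin, vinculin and zyxin tie filaments to each other and to adhesion sites. SRF, with cofactors that sense free actin, drives many of these genes, and cartilage cells grown on plastic are known to build stress fibres of this kind.

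The 6 libraries held between 13133980 and 16913745 estimated reads. At an adjusted p under 0.05, edgeR called 26 of 14146 tested models higher (0.184%) with GW0742 and 11 lower (0.0778%), and DESeq2 called 207 (1.46%) and 234 (1.65%). The groups did not overlap in CPM (counts scaled to library size, with TMM) in 1610 models that were higher (11.4%) and 1707 that were lower (12.1%). Within groups, the chi-square per degree of freedom was highest, at 16.0, between GW0742 replicates 2 and 3. Values without GW0742 replicate 2 are therefore given beside members whose overlap rests on it and some whose sign does. The log2 values of CALD1, CNN3, FHL2, MYH9, the MYH10 model ENSSSCG00000017987, SYNPO2 and TAGLN2 also changed sign without that library. They then lay between -0.061 and 0.052, and the groups still overlapped. Chondrocyte markers were mixed in level: COL2A1 stood at 104 to 112 RPKM with GW0742 and 109 to 119 RPKM with DMSO, and COL9A1 was under 1 RPKM in all 6 libraries. COL1A2, a collagen of fibroblasts and dedifferentiated chondrocytes, stood at 6099 to 6697 RPKM with GW0742 and 6894 to 7447 RPKM with DMSO.

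Levels can be set side by side between gene models in RPKM, in which the authors scaled reads by model length and library depth. A model need not stand for a whole gene: the 2 ACTN1 models, of 3913 and 1031 bases, stood at means of 334 and 787 RPKM with DMSO. The order below is therefore one of models. The cytoplasmic actin ACTG1 was the highest member, at 3396 ± 152 RPKM with GW0742 and 3466 ± 99 RPKM with DMSO (SD, n = 3 each). The transgelin TAGLN followed at 2618 ± 432 RPKM with GW0742 and 2816 ± 119 RPKM with DMSO, and the cytoplasmic actin ACTB at 2261 ± 222 RPKM with GW0742 and 2268 ± 135 RPKM with DMSO. ACTA2 stood at 1723 ± 115 RPKM with GW0742 and 2072 ± 60 RPKM with DMSO and TPM4 at 1592 ± 250.0 RPKM with GW0742 and 1940.5 ± 114 RPKM with DMSO. TPM1, TPM2, the heavy chain MYH9 of non-muscle myosin IIA and the ACTN1 model ENSSSCG00000025196 came next in the DMSO order, at means of 1161 ± 7.9, 872 ± 35, 842 ± 30 and 787 ± 37 RPKM with DMSO. TAGLN, ACTB and ACTA2 are neighbours in that order, but with DMSO the TAGLN range of 2705 to 2940.5 RPKM did not meet that of ACTB (2127 to 2395 RPKM), whereas those of ACTB and ACTA2 (2016 to 2136 RPKM) did.

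Muscle genes of the list did not stand at one level. ACTA2, TAGLN and CNN1 (267 ± 10 RPKM with GW0742 and 319 ± 3.4 RPKM with DMSO) were abundant and desmin (DES), the muscle intermediate filament, stood at 143 ± 17 RPKM with GW0742 and 171 ± 9.3 RPKM with DMSO. The enteric smooth muscle actin ACTG2 stood at 235 ± 58 RPKM with GW0742 and 240 ± 27 RPKM with DMSO. Smoothelin (SMTN) stood at 77.2 ± 7.1 RPKM with GW0742 and 95.0 ± 2.4 RPKM with DMSO. The smooth muscle heavy chain MYH11 stood at 1.72 ± 0.14 RPKM with GW0742 and 1.58 ± 0.14 RPKM with DMSO, and 2 further models whose protein name is myosin-11, which the symbol rule leaves out, stood at 1.55 to 6.06 RPKM with GW0742 and 1.94 to 3.57 RPKM with DMSO. The skeletal actin ACTA1 stood at 2.32 ± 0.21 RPKM with GW0742 and 2.80 ± 0.36 RPKM with DMSO, and the cardiac actin ACTC1 at 1.11 ± 0.28 RPKM with GW0742 and 1.30 ± 0.18 RPKM with DMSO. The list is a set of genes, and its label is not read here as a cell type.

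**Figure D1:**
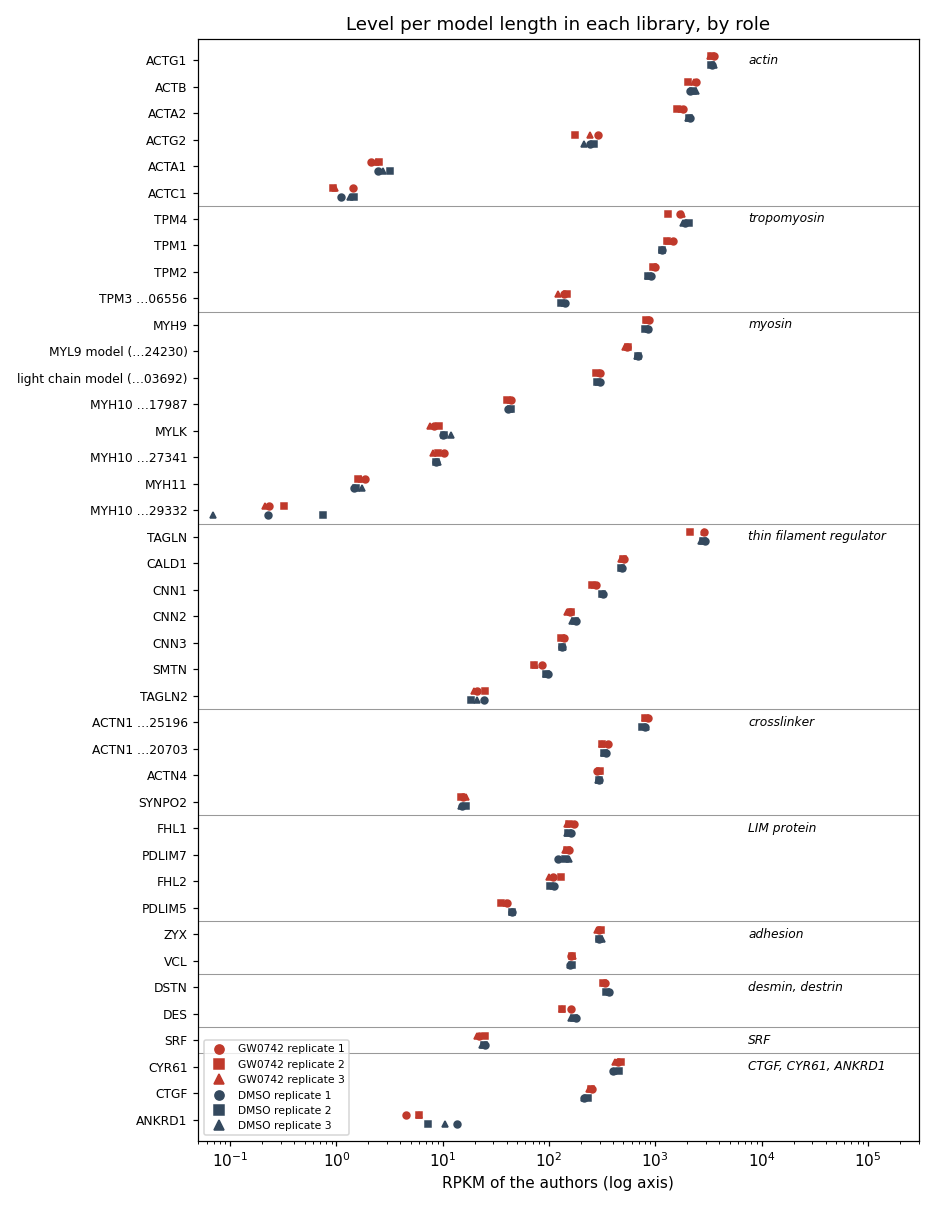
Level of each model in the 3 GW0742 libraries (red, upper row of each pair) and the 3 DMSO libraries (dark, lower row), as the authors' RPKM on a log axis, grouped by role; a TPM3 model with no reads in the GW0742 libraries is left out. ACTG1 is the highest at 3396 ± 152 RPKM with GW0742 and 3466 ± 99 RPKM with DMSO, and MYH11, ACTA1 and ACTC1 lie near the low end.

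Of the 42 models, 40 had enough reads to test. The MYH10 model ENSSSCG00000029332 (means of 0.255 RPKM with GW0742 and 0.346 RPKM with DMSO) and the TPM3 model ENSSSCG00000008851 (0 reads with GW0742, and 1, 0 and 1 reads in the DMSO libraries) did not. Of the 40, 28 had a log2 fold change below 0 and 12 above, from -0.97 in ANKRD1 to 0.21 in TPM1. Their median was -0.048, against -0.0015 over all tested models, and 25 of the 40 lay within 0.15 of 0. In bulk RNA, fewer cells of a type and less RNA per cell cannot be told apart.

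In edgeR, 1 of the 40 passed as lower (all tested models, 0.0778%) and 0 as higher (0.184%), with 3 higher and 11 lower at an unadjusted p under 0.05 (all tested models, 7.93% and 8.91%). The 1 model is ENSSSCG00000024230 of MYL9, and it did not pass in any of the 6 fits that leave out 1 library. DESeq2 called 6 lower (all tested models, 1.65%) and 0 higher (1.46%): that model, ACTA2, CNN1, PDLIM5, SMTN and ANKRD1. The CPM of the groups did not overlap in 11 models that were lower, 27.5% of the 40 (all tested models, 12.1%), and in 3 that were higher, 7.5% (all tested models, 11.4%). The 11 are the MYL9 model, MYLK, ACTA2, TPM4, CNN1, CNN2, SMTN, PDLIM5, DES, DSTN and ANKRD1, and the 3 are TPM1, TPM2 and CTGF.

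Abundance moves with this count. At a mean of at least 200 CPM, which 30 of the 40 members reach, the groups did not overlap in 9 members that were lower and 3 that were higher. Among all 695 models at that level, 161 were lower without overlap (23.2%) and 63 higher (9.06%). The members were chosen on this contrast, so nothing is read from these shares.

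**Figure D2:**
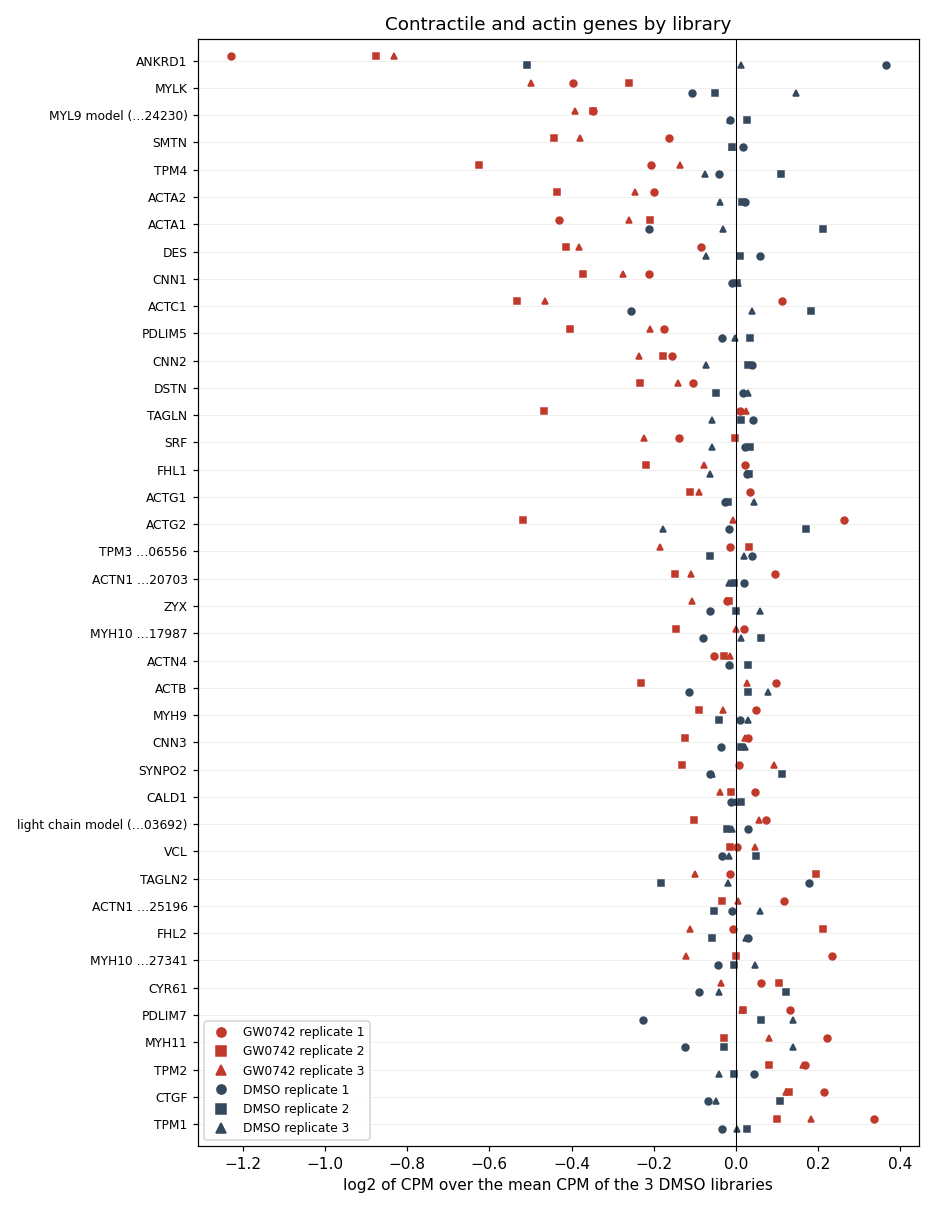
Each of the 40 tested models by library, as the log2 of its CPM over the mean of the 3 DMSO libraries, with GW0742 in red above DMSO in dark for each model. From the top, ANKRD1, MYLK and the MYL9 model have their 3 GW0742 values below all DMSO values, and TPM1 at the foot has all 3 above.

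Among the motor genes, 1 regulatory light chain model and the MYLK model of the list were lower with GW0742, while the other light chain model of the list and the heavy chains overlapped between the groups. ENSSSCG00000024230, which the deposited annotation names MYL9 by both protein and pathway, had 908, 908 and 881 CPM with GW0742, against 1144, 1177 and 1145 CPM with DMSO. Each GW0742 value lay under each DMSO value, and both groups were tight, with coefficients of variation of 1.71% with GW0742 and 1.61% with DMSO (log2 -0.36 ± 0.05, SE). The other light chain model, ENSSSCG00000003692, carries the protein name of a MYL9-like chain, but the pathway annotation calls it light chain 12, which goes against reading it as MYL9.

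That second model had 423, 374 and 418 CPM with GW0742, against 410.3, 396 and 399 CPM with DMSO. Its groups overlapped, and its log2 value was 0.01 ± 0.06 (SE). The overlap rested on GW0742 replicate 2, without which both GW0742 values lay above the DMSO values (log2 0.07). The ratio of the MYL9 model to it, in RPKM, was 1.83 ± 0.14 with GW0742 and 2.37 ± 0.076 with DMSO (SD, n = 3 each). This ratio was lower with GW0742 and did not overlap between the groups. MYL12A, another regulatory light chain and no member of the list, had 177, 193 and 174 CPM with GW0742, against 171, 161 and 167 CPM with DMSO, all 3 GW0742 values above the DMSO values. The 3 light chain models summed gave 1508, 1474 and 1473 CPM with GW0742, against 1725, 1733 and 1711 CPM with DMSO, lower with GW0742 without overlap. The MYL9 model made up most of this sum (mean of 1155 of 1723 CPM with DMSO). The sum and the ratio above therefore largely repeat its difference. Reads of the 3 like sequences could have been split between models, and this was not tested.

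MYH9, the highest myosin, had 5848, 5314 and 5536 CPM with GW0742, against 5695, 5499 and 5771 CPM with DMSO. The groups overlapped, with a log2 value of -0.02 ± 0.06 (SE). The ratio of the MYL9 model to MYH9, in RPKM, was 0.642 ± 0.032 with GW0742 and 0.811 ± 0.033 with DMSO (SD, n = 3 each), lower with GW0742 without overlap. With MYH9 overlapping, this ratio largely repeats the difference of the MYL9 model. The MYH10 models ENSSSCG00000017987 and ENSSSCG00000027341, of the non-muscle IIB heavy chain, and MYH11 all overlapped, with log2 values of -0.04, 0.04 and 0.09. As a percentage of the summed RPKM of these heavy chain models, MYH9 made up 94.0 ± 0.089 with GW0742 and 94.0 ± 0.37 with DMSO (SD, n = 3 each), and the groups overlapped.

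MYLK, the kinase that phosphorylates the regulatory light chain, was low, with 12.5, 13.7 and 11.6 CPM with GW0742, against 15.3, 15.8 and 18.2 CPM with DMSO. Each GW0742 library was below each DMSO library (log2 -0.38 ± 0.12, SE). A second model with the same protein name, ENSSSCG00000020935, overlapped between the groups, and with both summed the log2 value was -0.25.

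Of the 6 actins, ACTA2 was lower with GW0742 without overlap in CPM and the other 5 overlapped. ACTA2 had 3227, 2741 and 3127 CPM with GW0742, against 3763, 3743 and 3606 CPM with DMSO. All GW0742 values were lower, the lowest in replicate 2, and the groups did not overlap (log2 -0.29 ± 0.07, SE). ACTG1, the highest actin, had 7536, 6812 and 6915 CPM with GW0742, against 7224, 7265 and 7583 CPM with DMSO. Its groups overlapped, with a log2 value of -0.05 ± 0.06 (SE). ACTB, ACTG2 (the enteric smooth muscle actin), ACTA1 and ACTC1 overlapped as well, with log2 values of -0.03, -0.05, -0.29 and -0.27. Without GW0742 replicate 2, ACTG2 and ACTB had log2 values of 0.13 and 0.06 and still overlapped, and ACTA1 was lower without overlap (log2 -0.33).

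Of the summed RPKM of the 6 actins, ACTA2 made up 22.4, 22.4 and 23.1 percent with GW0742, against 26.8, 25.8 and 24.6 percent with DMSO. Every GW0742 share was below every DMSO share, with means of 22.6 ± 0.43% and 25.7 ± 1.1% (SD, n = 3 each). The shares of the other 5 actins overlapped. ACTA2 and ACTG2 together had 3618, 2968 and 3451 CPM with GW0742, against 4085, 4110.4 and 3894 CPM with DMSO, lower with GW0742 without overlap. ACTA2 made up most of this sum (mean of 3704 of 4030 CPM with DMSO), so the sum largely repeats its difference. ACTB and ACTG1 together had 12441, 10721 and 11593 CPM with GW0742, against 11459.7, 11944 and 12426 CPM with DMSO, and overlapped. Actins are near-identical in coding sequence and the deposited annotation matches the ACTG1 model to beta-actin, so how reads fall between ACTB and ACTG1, and between ACTA2 and ACTG2, is uncertain.

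**Figure D3:**
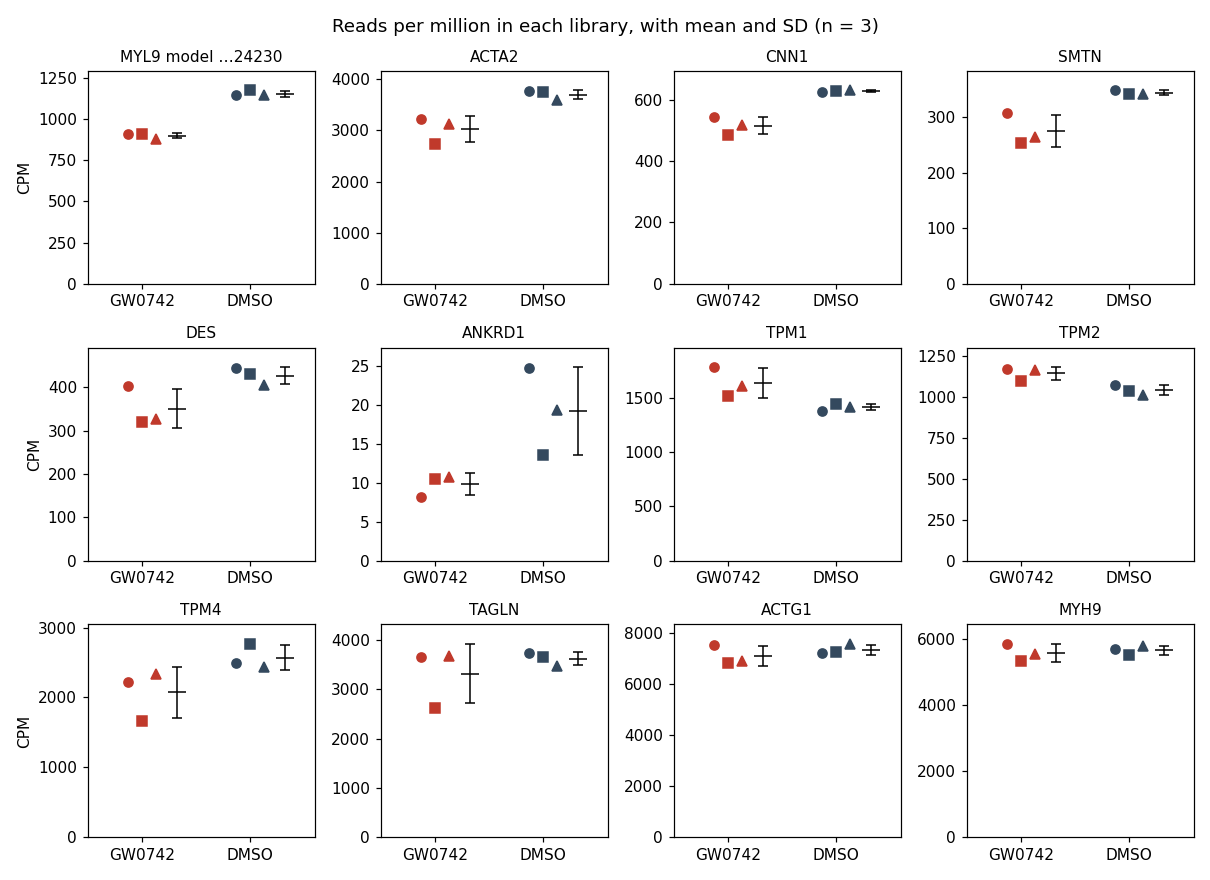
CPM of 12 members in each library, with GW0742 (red) left of DMSO (dark) and the mean and SD of each group at the right of its points; axes start at 0. The MYL9 model, ACTA2, CNN1, SMTN, DES, ANKRD1 and TPM4 are lower with GW0742 without overlap, TPM1 and TPM2 are higher, and TAGLN, ACTG1 and MYH9 overlap.

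The tropomyosins, coiled coils that lie along the actin filament and decide which partners bind it, went both ways. TPM4, the highest of the family, had 2223, 1662 and 2334 CPM with GW0742, against 2496, 2768 and 2435 CPM with DMSO. Its GW0742 values were all lower, by little in replicates 1 and 3 and more in replicate 2 (log2 -0.31 ± 0.12, SE, and -0.17 without replicate 2). TPM1 had 1785, 1517 and 1606 CPM with GW0742, against 1383, 1442 and 1418 CPM with DMSO. Each GW0742 value was above each DMSO value, with log2 0.21 ± 0.07 (SE). TPM2 had 1169.5, 1101 and 1167 CPM with GW0742, against 1073, 1038 and 1013 CPM with DMSO. Here too the GW0742 libraries were all higher (log2 0.14 ± 0.06, SE). The TPM3 model ENSSSCG00000006556 overlapped, with a log2 value of -0.05.

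The shares of TPM1 and TPM4 parted the groups, while the sum of the family overlapped. TPM1, TPM2 and TPM4 did not pass in edgeR (adjusted p = 0.192, 0.269 and 0.253) or in DESeq2 (adjusted p = 0.0779, 0.221 and 0.108). Their shares and ratio restate the values of the same models and were chosen after these were seen. The tropomyosin models summed gave 4286, 3709.8 and 4211 RPKM with GW0742, against 4123, 4217 and 3990.2 RPKM with DMSO, and the groups overlapped. Of that sum TPM1 made up 34.4, 34.9 and 31.5 percent with GW0742, against 28.0, 27.7 and 29.2 percent with DMSO, higher with GW0742 in every library. TPM4 made up 39.4, 35.3 and 42.2 percent with GW0742, against 46.5, 48.9 and 46.1 percent with DMSO, lower with GW0742 in every library. The ratio of TPM1 to TPM4 in RPKM was 0.870 ± 0.12 with GW0742 and 0.600 ± 0.034 with DMSO (SD, n = 3 each), and it did not overlap between the groups. GW0742 replicate 2 had the highest ratio of the 6, at 0.991. Tropomyosin genes share much of their coding sequence and are spliced into many forms, which these models do not separate.

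**Figure D4:**
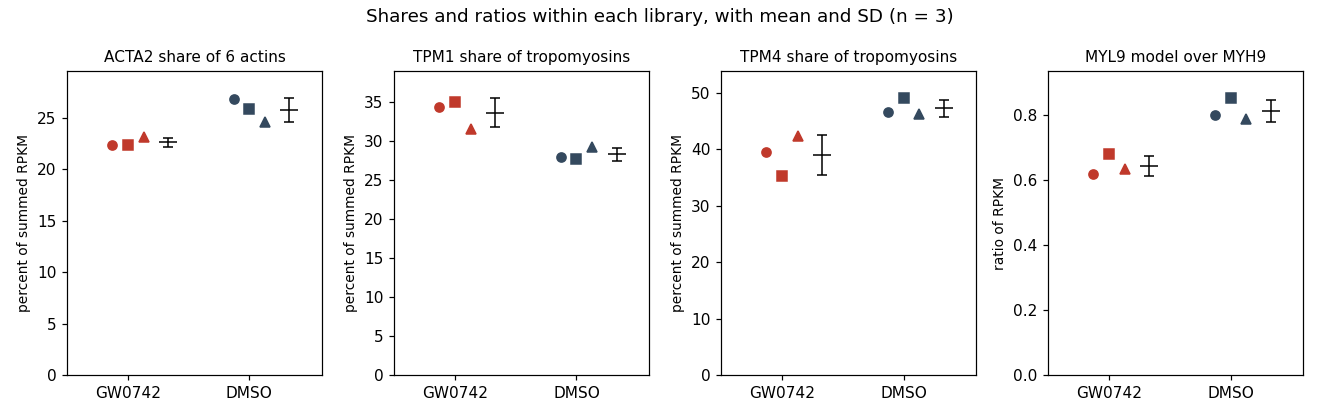
Shares and ratios within each library, with GW0742 (red) left of DMSO (dark) and the mean and SD at the right; the first 3 panels give percent of the summed RPKM of the family and the fourth a ratio of RPKM. ACTA2 and TPM4 take a smaller share with GW0742 (means of 22.6% and 39.0%) than with DMSO (25.7% and 47.2%), TPM1 takes a larger one, and no panel overlaps. The panels were chosen after their values were seen, and shares that overlapped, such as those of ACTB, ACTG1 and ACTG2, are not drawn.

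Of the 7 tested proteins that bind and regulate the thin filament, CNN1, CNN2 and SMTN were lower without overlap and TAGLN, TAGLN2, CALD1 and CNN3 overlapped. CNN1, the calponin typical of smooth muscle, had 543, 485 and 519 CPM with GW0742, against 625, 630.1 and 631 CPM with DMSO. The DMSO libraries lay within a coefficient of variation of 0.501%, and all GW0742 libraries were lower (log2 -0.28 ± 0.06, SE). CNN2, a calponin of many cell types, had 415, 409 and 393 CPM with GW0742, against 475, 472 and 439.8 CPM with DMSO. The GW0742 values were again all lower (log2 -0.19 ± 0.06, SE). CNN3, the acidic calponin, overlapped with a log2 value of -0.02, and CNN1 made up 47.9 ± 0.72% of the summed RPKM of the 3 calponins with GW0742 and 50.9 ± 0.51% with DMSO (SD, n = 3 each).

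Smoothelin (SMTN), a protein of smooth muscle stress fibres, had 308, 254 and 265 CPM with GW0742, against 349, 343 and 343 CPM with DMSO. The groups did not overlap, although GW0742 replicate 1 lay nearer to DMSO than the other 2 GW0742 libraries (log2 -0.32 ± 0.08, SE). TAGLN, or SM22 alpha, the highest transgelin, had 3643, 2617 and 3679 CPM with GW0742, against 3722, 3651 and 3476 CPM with DMSO. GW0742 replicates 1 and 3 lay among or beside the DMSO values and replicate 2 far below them (log2 -0.13 ± 0.12, SE, and 0.02 without replicate 2). Caldesmon (CALD1), which holds myosin off the filament, had a log2 value of -0.00071, and TAGLN2 one of 0.03.

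Crosslinkers, most LIM proteins and adhesion proteins did not part the groups. The alpha-actinin models ACTN1 ENSSSCG00000020703, ACTN1 ENSSSCG00000025196 and ACTN4 and the alpha-actinin binding SYNPO2 all overlapped, with log2 values between -0.05 and 0.03. Vinculin (VCL) and zyxin (ZYX), of adhesion sites, overlapped at log2 values of 0.01 and -0.05. A second model with the protein name zyxin, which the symbol rule leaves out, overlapped too and was highest in GW0742 replicate 2. It stood at 7.37 to 40.3 RPKM with GW0742 and 8.07 to 18.9 RPKM with DMSO. The LIM proteins FHL1, FHL2 and PDLIM7 overlapped at -0.09, 0.04 and 0.06. PDLIM5, which binds alpha-actinin, had 237, 202 and 231 CPM with GW0742, against 261, 274 and 267 CPM with DMSO. All GW0742 values were lower, without overlap (log2 -0.26 ± 0.07, SE).

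DES, the intermediate filament of muscle, had 403, 321 and 328 CPM with GW0742, against 446, 431 and 406 CPM with DMSO. The gap between the groups was narrow, since GW0742 replicate 1 lay just under DMSO replicate 3 (log2 -0.29 ± 0.09, SE). Destrin (DSTN), which severs and depolymerises actin filaments, had 598, 547 and 583 CPM with GW0742, against 649.7, 622 and 656 CPM with DMSO. The GW0742 libraries were all lower (log2 -0.16 ± 0.06, SE).

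SRF and the targets of mechanical signalling ANKRD1, CTGF and CYR61 gave no common direction. SRF had 92.3, 101 and 87.0 CPM with GW0742, against 103, 104 and 97.6 CPM with DMSO. Its groups overlapped through GW0742 replicate 2 alone (log2 -0.12 ± 0.07, SE, and -0.18 without it). ANKRD1, a nuclear ankyrin repeat protein known from heart and skeletal muscle, was low and had 8.19, 10.5 and 10.8 CPM with GW0742, against 24.8, 13.5 and 19.4 CPM with DMSO. All GW0742 values were lower, and its DMSO libraries were widely spread, with a coefficient of variation of 29.2% (log2 -0.97 ± 0.21, SE). CTGF, a secreted matrix protein and a known target of YAP and TGF-beta, had 658, 620.2 and 617 CPM with GW0742, against 541, 611 and 548 CPM with DMSO. The GW0742 libraries were all higher, by little over DMSO replicate 2 (log2 0.16 ± 0.07, SE). CYR61, its secreted relative, had 1171, 1207 and 1094 CPM with GW0742, against 1053, 1221 and 1089 CPM with DMSO. These groups overlapped, and the log2 value was 0.05 ± 0.07 (SE).

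Spread within the GW0742 group was uneven over the members. The median coefficient of variation of the 30 members of at least 200 CPM was 6.05% with GW0742 and 2.98% with DMSO, against 5.61% and 4.45% over the 695 models of that level. GW0742 replicate 2 was the lowest of the 6 libraries in 19 of the 40 (47.5%), against 20.7% of all tested models. ACTG2 stood in that library at 63.6% of the mean of the other 2 GW0742 libraries, TAGLN at 71.5%, TPM4 at 73.0% and ACTB at 81.6%, whereas the MYL9 model stood at 101%, CNN2 at 101%, ZYX at 103% and SRF at 113%. Without that library, 13 models were lower and 4 higher without overlap (all tested models, 17.7% and 17.2%). Of the scaled reads, the members summed took 4.51, 3.95 and 4.30 percent with GW0742, against 4.43, 4.52 and 4.49 percent with DMSO, and the groups overlapped.

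Beside the members, 5 lists of 138 further gene symbols of the pathway were examined, with aliases of some genes counted apart. Of these, 109 were matched and 106 tested. In edgeR, 0 of the 106 passed in either direction, with 13 higher and 23 lower at an unadjusted p under 0.05 (all tested models, 7.93% and 8.91%). DESeq2 called 4 higher and 12 lower (all tested models, 1.46% and 1.65%). The groups did not overlap in 13 genes that were higher and 31 that were lower (all tested models, 11.4% and 12.1%).

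Of the 26 genes of actin nucleation, capping and turnover, 19 had log2 values below 0, with a median of -0.17, and 12 were lower and 1 higher without overlap (all tested models, 12.1% and 11.4%). Among all models of at least 200 CPM the shares were 23.2% and 9.06%, but many genes of this list, CAPZA2 and PFN1 among them, lie under that level. Its 2 genes with the smallest p were CAPZA2, a subunit of the protein that caps filament ends, and PFN1, which delivers actin monomers. CAPZA2 had 19.0, 16.1 and 19.99 CPM with GW0742, against 27.7, 29.1 and 28.5 CPM with DMSO. All GW0742 values were lower, but the gene did not pass in edgeR (log2 -0.63 ± 0.10, SE, adjusted p = 0.0542), with adjusted p-values from 0.000634 to 0.208 over the alternatives. PFN1 had 119, 132 and 125 CPM with GW0742, against 159, 147 and 152 CPM with DMSO. It was lower in 3 of 3 GW0742 libraries and did not pass in edgeR (log2 -0.28 ± 0.06, SE, adjusted p = 0.101, from 0.0141 to 0.346 over the alternatives).

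The 25 tested genes of other actin bundling and crosslinking proteins had a median log2 value of -0.069, with 8 lower and 2 higher without overlap (all tested models, 12.1% and 11.4%). SORBS3, or vinexin, which binds vinculin, had 176, 187 and 165 CPM with GW0742, against 225, 211 and 221 CPM with DMSO. All GW0742 values were lower (log2 -0.32 ± 0.07, SE), without passing in edgeR (adjusted p = 0.0839, from 0.00224 to 0.325 over the alternatives). LPP, a LIM protein of adhesion sites related to zyxin, had 12.6, 18.5 and 17.4 CPM with GW0742, against 23.6, 32.3 and 25.2 CPM with DMSO. It too was lower in each GW0742 library and did not pass in edgeR (log2 -0.74 ± 0.17, SE, adjusted p = 0.102, from 0.00366 to 0.270 over the alternatives).

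The 20 tested regulators and immediate early targets of SRF, MRTF, YAP and TEAD were even, with 10 log2 values on each side of 0 and 5 higher and 2 lower without overlap (all tested models, 11.4% and 12.1%). JUNB, an AP-1 factor, had 189.8, 189 and 193 CPM with GW0742, against 138, 151 and 163 CPM with DMSO. It was higher in all GW0742 libraries and did not pass in edgeR (log2 0.34 ± 0.07, SE, adjusted p = 0.0867, from 0.00253 to 0.310 over the alternatives). EGR1, a zinc finger factor induced by serum through SRF, had 15.1, 25.2 and 10.8 CPM with GW0742, against 6.05, 7.81 and 6.72 CPM with DMSO. Each GW0742 value was higher, with replicate 2 the highest, and edgeR did not call it (log2 1.32 ± 0.29, SE, adjusted p = 0.0961, from 0.000342 to 0.340 over the alternatives).

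Of the 19 myofibroblast and TGF-beta response genes, 9 had log2 values above 0 and 10 below, and 4 were higher and 3 lower without overlap (all tested models, 11.4% and 12.1%). THY1, a surface protein of fibroblasts, had 585, 605 and 564 CPM with GW0742, against 722, 727 and 686 CPM with DMSO. All GW0742 values were lower, and edgeR did not call it (log2 -0.28 ± 0.06, SE, adjusted p = 0.0788, from 0.000519 to 0.302 over the alternatives). LTBP2, which binds fibrillin in the matrix, had 805, 925 and 836 CPM with GW0742, against 669, 745 and 706 CPM with DMSO. Here the GW0742 libraries were all higher, and edgeR did not call it (log2 0.28 ± 0.07, SE, adjusted p = 0.126, from 0.0112 to 0.372 over the alternatives).

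**Figure D5:**
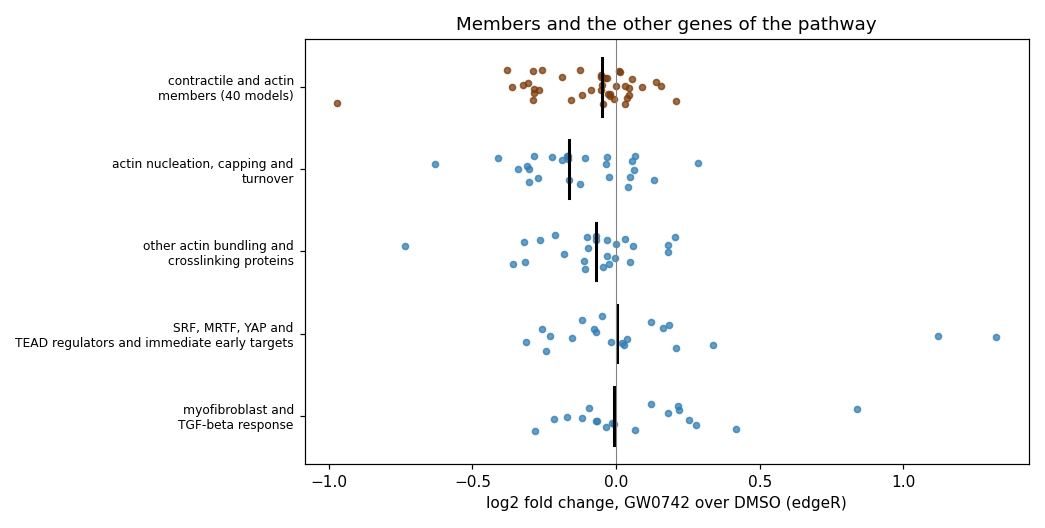
Log2 fold change of GW0742 over DMSO (edgeR) for the 40 tested members (brown, top row) and for the tested genes of 4 further lists (blue), 1 point per gene, with the median as a black bar and the vertical scatter without meaning. The medians are -0.048 for the members and -0.17 for actin nucleation, capping and turnover, and the regulator and TGF-beta lists lie about 0.

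Markers of other cell types were set beside these values in RPKM, in which 12.2% of all 19670 models were higher with GW0742 without overlap and 8.85% lower. Of the matched markers, ACAN alone passed in edgeR. Of 7 matched endothelial markers, 5 were higher with GW0742 without overlap and 0 lower, and the summed RPKM of the 7 was 103 to 130.3 with GW0742 and 64.1 to 96.6 with DMSO. Most of it was CLDN5, a tight junction protein, at 89.5 to 98.2 RPKM with GW0742 and 52.0 to 82.0 RPKM with DMSO. The sum was highest in GW0742 replicate 2, the library in which ACTG2, TAGLN and TPM4 were lowest. Of 6 pericyte and vascular mural cell markers, 4 were higher, with a sum of 200.1 to 200.4 with GW0742 and 185 to 199 with DMSO. These groups did not overlap in their sums, although the mural gap was small. Of the 4 mural markers, KCNJ8 and ABCC9 were under 1 RPKM in all 6 libraries. In the edgeR fit of counts, CSPG4 and PDGFRB had log2 values of 0.05 and 0.07. NOTCH3 and MCAM overlapped in RPKM and had log2 values of -0.13 and 0.26 in that fit. MCAM stood at 18.4 to 20.6 RPKM with GW0742 and 16.9 to 23.4 RPKM with DMSO, so its higher value in counts was not seen in RPKM. Mural cells also express ACTA2, CNN1 and TAGLN.

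Of 10 chondrocyte markers 4 were lower with GW0742 and 0 higher, with a summed RPKM of 384 to 395 with GW0742 and 440.3 to 458 with DMSO. ACAN, the main proteoglycan of cartilage, was 1 of the 4 and stood at 72.5 to 79.1 RPKM with GW0742 and 101 to 112 RPKM with DMSO (log2 -0.50 ± 0.06, SE, edgeR adjusted p = 0.0185, from 3.73e-13 to 0.105 over the alternatives). The edgeR adjusted p was 0.105 with GW0742 replicate 1 left out, 0.101 with DMSO replicate 1 left out and 0.0815 with DMSO replicate 3 left out. The 14 matched striated muscle markers summed to 25.0 to 30.0 with GW0742 and 28.4 to 33.2 with DMSO, with 3 lower without overlap (MYOD1, MYF5 and MYF6, all under 1 RPKM), 0 higher, and 10 of the 14 under 1 RPKM in all 6 libraries. Of 5 fibroblast markers 2 were higher and 1 lower, with a sum of 13937 to 14818 with GW0742 and 14740.1 to 15236 with DMSO. Keratinocyte markers summed to 2.90 to 3.42 with GW0742 and 2.62 to 3.15 with DMSO and leukocyte markers to 16.4 to 17.2 with GW0742 and 13.8 to 16.0 with DMSO, with 1 of 4 higher in each. None of the matched markers of these lists was at 0 in all 6 libraries. The part of these cell types in the values of the contractile genes was not tested.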

How the data were processed

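RNA was measured in 6 libraries, 3 with GW0742 and 3 with DMSO. Per the labels' protocols, poly(A) RNA was selected on oligo(dT) beads, and reverse transcription started from random hexamers, with no strand step named. Per the file headers, each deposited library table lists an RPKM and an estimated count per gene model, both made by the authors. Estimated counts may split reads between like models, so paralogs are uncertain. The build was Sscrofa10.2, per the submitters' processing notes, and for the aligner, counter and annotation the sources used here give no name.

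Estimated counts were rounded to whole numbers, filtered with filterByExpr (minimum count 10) and TMM-scaled. GW0742 was set against DMSO without a block in edgeR 4.0.16 (quasi-likelihood, R 4.3.3). Two-sided p-values were adjusted by Benjamini-Hochberg over 14146 models, with a threshold of 0.05. The SE of a log2 value is its size over the root of its F value. A floor of 3 reads corresponds to 0.178 to 0.23 CPM and covers counting error only. Symbols come from a gene name table (11147 models) and from protein and pathway matches through the RefSeq genes of Sscrofa11.1 (567), so no coordinates are printed. The test was also run on simulated data, the outcome is not reported here, and nothing above rests on it.

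The alternatives tried were DESeq2 1.42.0, size factors by median of ratios, no filter, a replicate block, each library left out, limma 3.58.1 on log2(RPKM + 1) and log2(RPKM + 0.1), an adjusted p under 0.01, and models of 1 protein name summed. A robust prior, and counts of groups without overlap in RPKM or without 1 library, were chosen after seeing the data. Members and lists were chosen with earlier results of these data known. Given by library are members without overlap, the highest actin, myosin, tropomyosin, calponin and transgelin, the markers, both light chain models, SRF, CTGF, CYR61 and ANKRD1. Of each further list, the 2 genes with the smallest p are named where none passed; 1 list counts in the totals and is not reported here on its own. Other members, MYL12A, and the summed and ratio values were chosen after their values were seen.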

Additional observations from a re-analysis of the deposited data

How the results depend on the processing

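Over all tested models, the 26 higher and 11 lower calls became 207 and 234 with DESeq2, 13 and 3 without a filter, 54 and 27 with models of 1 protein name summed, and 6 and 0 at an adjusted p under 0.01. Limma on log2(RPKM + 0.1) gave 17 higher and 4 lower, and limma on log2(RPKM + 1) gave 3 lower. Without 1 library, between 6 and 54 were higher and between 0 and 47 lower. The 1 member called lower became 6 with DESeq2 and 0 in both limma fits, at an adjusted p under 0.01 and without any 1 library (0 to 0). Among the pathway genes, 0 and 0 became 4 higher and 12 lower with DESeq2, and leaving out 1 library gave 0 to 1 in each direction, the calls coming without GW0742 replicate 3. Members above DMSO without overlap numbered 3 to 5 with 1 library left out, 5 without DMSO replicate 2, and those below numbered 11 to 15. Of all tested models, 11.4% were higher and 12.1% lower without overlap, and 17.2% and 17.7% with GW0742 replicate 2 left out. Shares with another library left out were not taken, so nothing is read from these counts. The cause of the changes over settings was not tested.

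With the replicate number as a block, 10 models were higher and 0 lower, and 0 members were lower. Deviations of same-numbered libraries correlated at 0.00543, -0.032 and -0.103, so no pairing by replicate number was seen. With 3 libraries per group, these values could miss a weak pairing. Of the log2 values of single members under the alternatives, 546 stayed within 1 SD between libraries of the main value, 5 moved by more (ACTN4 and FHL1 in both limma fits and MYLK with models summed), and 9 of the MYL9 model kept their direction without passing. Precision is limited by 3 libraries per group, all of 1 pig, and low members such as ACTC1 and MYH11 rest on few reads.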
